A study of Mus musculus with 4 samples.

Results

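The genes described here are 9 core genes of the Hedgehog pathway, namely the ligand genes *Shh* and *Ihh*, the receptor gene *Ptch1*, the ligand antagonist gene *Hhip*, the transducer gene *Smo*, the inhibitor gene *Sufu* and the transcription factor genes *Gli1*, *Gli2* and *Gli3*. They were taken as a named list out of 19938 genes that have a probe set with exactly 1 gene symbol in the array annotation. This list was chosen with earlier results of these data known. Each of the 9 has a single such probe set, so that no choice between probe sets was needed and none was lost to a filter. Their mRNA was measured in the line ILC87-Ik1-ER on 4 Affymetrix Gene ST 1.0 arrays, where 2 samples had received the vehicle ethanol (EtOH) and 2 had received 100 nM 4-hydroxytamoxifen (4OHT), all for 24 h. ILC87 is a line from the thymic tumour of 1 Ikaros f/f Lck-cre+ mouse, in which Cre, driven by the T-lineage Lck promoter, deletes Ikaros; EtOH and 4OHT arrays share this deletion. The labels give the strain as C57BL/6, whereas the study's methods describe Lck-Cre mice of this kind as of a mixed background of which C57Bl/6 is only a part, and the strain of this line was not settled here. All cells also carry the MigR1:Ik1-ER retrovirus, which encodes full-length Ikaros-1 joined to the oestrogen receptor domain for its ligand, with GFP, and were sorted as GFP+. The ligand 4OHT moves this protein to the nucleus. Cells lacking Ik1-ER were not given 4OHT on any array, so that an effect of 4OHT alone cannot be told apart.

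Hedgehog ligands bind Patched1 (*Ptch1*), which otherwise holds Smoothened (*Smo*) inactive. Active Smoothened, acting at the primary cilium in most vertebrate cells, releases the Gli factors from Sufu, so that Gli2 works as an activator and less Gli3 is cut into a repressor. *Gli1*, *Ptch1* and *Hhip* are themselves induced by the pathway in many tissues, and *Gli1* mRNA is a common readout of its activity. In the thymus, Sonic hedgehog made by epithelial cells acts on early CD4-CD8- thymocytes. The arrays were made to ask whether genes that gain H3K27me3, the repressive mark set by Polycomb repressive complex 2, after Ikaros is restored are also lower in mRNA.

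The deposited values are RMA values on a log2 scale, in which 1 unit is a 2-fold step. They lay between 3.09 and 14.2, with array medians of 7.11 to 7.16, and carry no detection calls. A probe set near or below these medians could not be told from background. Probe sets were compared with the medians, and signals were summed for the fibroblast markers. Signals of different genes were not read as relative amounts of mRNA. The tests came from a limma fit to the full set of 35556 probe sets, with a call made at a Benjamini-Hochberg adjusted p under 0.05. Nothing says that samples 1 and 2 of a treatment were separate cultures, so that the p-values reflect no more than how these samples varied, possibly for technical reasons. The number of arrays limits the precision, and with 2 against 2 the smallest two-sided p of an exact permutation test is 0.33. All 11 measured T-cell markers, among them *Cd3e* and *Thy1*, had means above the array medians (10.01 to 13.14), although *Cd3d* fell (log2 fold change −0.94, adjusted p = 0.0172 from limma). By contrast, 4 of 5 thymic epithelial and 3 of 4 endothelial markers lay at or below the median of all values, 7.13. Of 7 fibroblast markers 3 lay at or below it, and *Lum* was at 4.08. The collagen genes *Col1a1*, *Col1a2* and *Col3a1* lay above it, at 8.03, 7.77 and 7.62. Whether signals at such levels are background could not be told. One of these 7, the PDGF receptor gene *Pdgfrb*, was bright and fell (log2 fold change −1.92, adjusted p = 0.00810 from limma), and the summed linear signal of the 7 went from 3478 to 3691 with EtOH to 1647 to 1675 with 4OHT. None of the other 6 was called, and their log2 fold changes were all above 0 (0.028 for *Lum* to 0.40 for *Dcn*), so that *Pdgfrb* alone lowered the sum. Whether other cells had a part in the results was not tested. The targeted gene gives no check of the labels, because both treatments carry Ik1-ER: *Ikzf1* had means of 12.77 with EtOH and 12.84 with 4OHT.

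None of the 9 Hedgehog genes passed the test after 1 day of 4OHT, where 4.23% of all 19938 genes did. *Smo* and *Gli1* came close to it. *Smo* was 1.62-fold lower and *Gli1* 1.43-fold lower with 4OHT, with adjusted p of 0.0539 and 0.0523 from limma, and 4 of the 9 (*Smo*, *Gli1*, *Sufu* and *Gli2*) had an unadjusted p under 0.05, as did 20.4% of all genes. Calls were made in 2.99% of all genes downwards and in 1.23% upwards. Both 4OHT arrays lay below both EtOH arrays for 3 of the 9 (*Smo*, *Gli1* and *Sufu*) and above them for 3 (*Gli2*, *Ihh* and *Shh*), while the treatments overlapped for *Ptch1*, *Hhip* and *Gli3*. Over all genes these shares were 24.5% below and 32.1% above. The median log2 fold change of the 9 was 0.043, beside 0.031 over all genes. Non-overlapping arrays were thus found in both directions among the 9 genes.

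**Figure D1:**
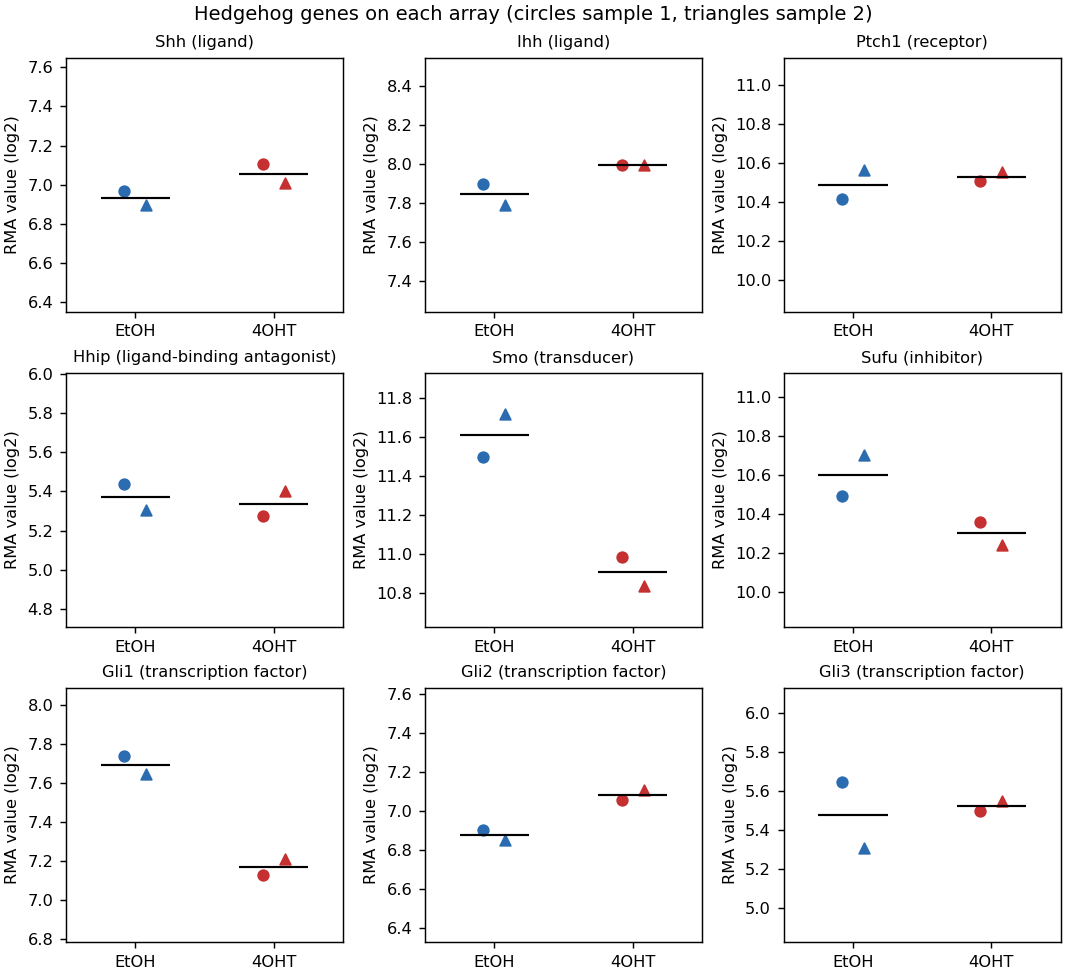
RMA expression values (log2, y axis) of the 9 Hedgehog genes on each of the 4 arrays, with EtOH in blue, 4OHT in red, circles for sample 1, triangles for sample 2 and black lines for the mean of 2 arrays. Every panel spans the same 1.3 log2 units; the treatments stand clearly apart for *Smo* and *Gli1*, less so for *Sufu* and *Gli2*, and overlap for *Ptch1*, *Hhip* and *Gli3*.

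Among the ligand genes, *Shh*, which encodes Sonic hedgehog, had log2 values of 6.97 and 6.89 with EtOH and 7.10 and 7.01 with 4OHT. Both 4OHT arrays were above both EtOH arrays, but by only 0.042 at the nearest, and the interval of the log2 fold change of 0.13 included 0 (95% limits −0.083 to 0.34, adjusted p = 0.467 from limma). These signals are at or just below the array medians, so that *Shh* mRNA was not shown to be present. *Ihh*, which encodes Indian hedgehog, had log2 values of 7.90 and 7.79 with EtOH and 7.995 and 7.99 with 4OHT. Its 4OHT arrays were nearly equal and above both EtOH arrays, with a log2 fold change of 0.15 (95% limits −0.053 to 0.35, adjusted p = 0.385 from limma). At such signals, near those of the collagen genes above, *Ihh* mRNA was not shown to be present.

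*Ptch1*, the receptor gene and a target of the pathway, gave a bright signal that hardly differed between treatments. Its log2 values were 10.41 and 10.56 with EtOH and 10.51 and 10.55 with 4OHT, so that both 4OHT arrays lay between the EtOH arrays. The log2 fold change was 0.043 (95% limits −0.18 to 0.27, adjusted p = 0.826 from limma). *Hhip*, which encodes a membrane protein that binds and sequesters the ligands and is also a pathway target, was dim on every array, with 5.44 and 5.31 with EtOH and 5.27 and 5.40 with 4OHT. The log2 fold change was −0.037 (95% limits −0.28 to 0.21, adjusted p = 0.864 from limma). A fall of *Hhip* could not be seen if this signal is background.

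*Smo*, which encodes the 7-pass membrane protein that carries the signal into the cell, showed the largest difference of the 9. The EtOH arrays gave log2 values of 11.50 and 11.72 (mean 11.61 ± 0.15, SD, n = 2) and the 4OHT arrays 10.98 and 10.84 (10.91 ± 0.10, SD, n = 2). The nearest arrays of the treatments were 0.52 apart, against 0.22 between the EtOH arrays. The log2 fold change was −0.70 (1.62-fold lower, standard error 0.11, 95% limits −0.99 to −0.41, adjusted p = 0.0539 from limma), and 3.16% of all genes had a difference of at least this size in either direction. *Sufu*, which encodes the protein that holds Gli factors in the cytoplasm, differed less. Its log2 values were 10.49 and 10.70 with EtOH and 10.36 and 10.24 with 4OHT, so that the gap of 0.13 between the treatments was smaller than the 0.21 between the EtOH arrays. The log2 fold change was −0.30 (95% limits −0.57 to −0.022, adjusted p = 0.244 from limma). For *Smo* and *Sufu* alike the higher EtOH value was that of sample 2 and the higher 4OHT value that of sample 1.

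Promoter sequences of RefSeq (build GRCm38.p6) were found for 7 of the 9 genes, all but *Gli1* and *Shh*. The 250 bases before the start were searched on both strands for AGGAA and GGGAA, sites of the kind that Ikaros is known to bind, and for GACCACCCA, the consensus of Gli factors. AGGAA or GGGAA was present in 5 of the 7 windows and in 82.3% of 32851 windows of all genes, and GACCACCCA in none of the 7 and in 0.225% of all. The windows of *Smo* and *Sufu* are shown because these genes were lower on both 4OHT arrays. Each is written 5′ to 3′ on the strand of its gene, and capitals mark AGGAA and GGGAA or their reverse complements.
Smo (chr6:29735247-29735496, plus strand): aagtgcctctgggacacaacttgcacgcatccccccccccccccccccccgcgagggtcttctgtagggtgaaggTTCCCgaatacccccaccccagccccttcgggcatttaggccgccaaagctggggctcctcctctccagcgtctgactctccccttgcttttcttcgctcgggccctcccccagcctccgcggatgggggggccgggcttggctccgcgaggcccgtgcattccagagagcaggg
Sufu (chr19:46396646-46396895, plus strand): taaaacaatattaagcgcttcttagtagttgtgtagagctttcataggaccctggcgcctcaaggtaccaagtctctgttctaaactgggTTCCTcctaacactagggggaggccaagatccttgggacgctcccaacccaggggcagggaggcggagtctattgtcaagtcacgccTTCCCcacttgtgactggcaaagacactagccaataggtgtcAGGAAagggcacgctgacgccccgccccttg
The *Smo* window holds 1 match, 175 to 171 bases before the start, and that of *Sufu* holds 3, whose far ends lie 160, 73 and 31 bases before it. *Ihh*, higher on both 4OHT arrays without a call, holds 1 match. *Ptch1* and *Gli3*, whose treatments overlapped, hold 1 and 3, and *Gli2* and *Hhip* hold none. A link between matches and direction was not tested.

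*Gli1*, a transcriptional activator, had log2 values of 7.74 and 7.64 with EtOH (mean 7.69 ± 0.068, SD, n = 2) and 7.13 and 7.21 with 4OHT (7.17 ± 0.058, SD, n = 2). The nearest arrays of the treatments were 0.43 apart, and those of a treatment at most 0.097. The log2 fold change was −0.52 (1.43-fold lower, standard error 0.081, 95% limits −0.73 to −0.31, adjusted p = 0.0523 from limma), a size reached by 5.54% of all genes. With 4OHT the signal was close to the array medians, where background and expression could not be told apart. With EtOH it was at the level of the collagen genes above, where expression was not shown either. *Gli2*, the main activator of the response, ran the other way. Its log2 values were 6.90 and 6.85 with EtOH and 7.06 and 7.11 with 4OHT, a log2 fold change of 0.21 (95% limits 0.016 to 0.40, adjusted p = 0.242 from limma) in a probe set below the median of all values on every array. *Gli3*, which yields the main repressor, was also below that median throughout. Its EtOH arrays, at 5.65 and 5.31, enclosed the 4OHT arrays at 5.50 and 5.55 (log2 fold change 0.046, 95% limits −0.30 to 0.39, adjusted p = 0.882 from limma).

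**Figure D2:**
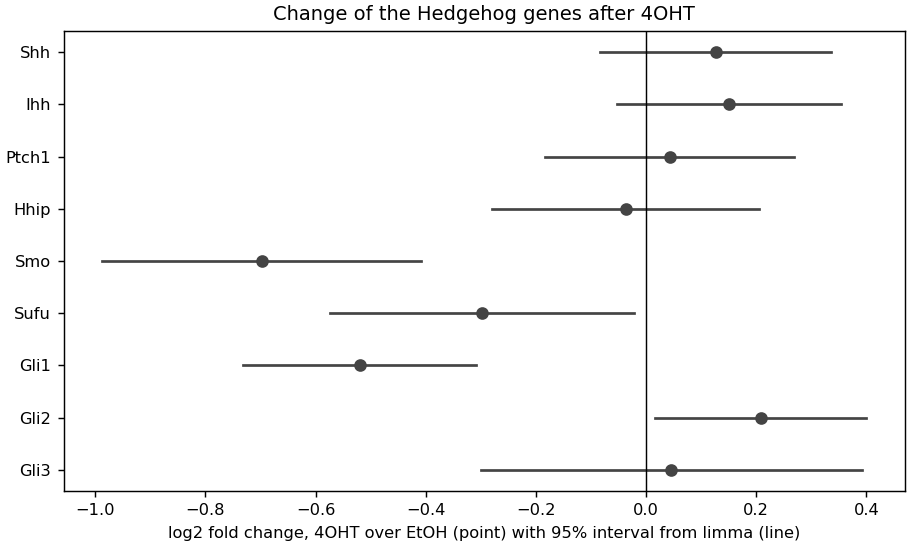
Log2 fold change (x axis, 4OHT over EtOH, n = 2 arrays each) of the 9 Hedgehog genes, with 95% intervals from limma that are not adjusted for the number of genes. Intervals of *Smo*, *Gli1* and *Sufu* lie below 0 and that of *Gli2* above it; the other 5 include 0.

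Whether *Smo* and *Gli1* passed the test depended on the processing. Over the 21789 probe sets with 1 gene symbol the adjusted p from limma was 0.000700 for *Smo* and 0.00175 for *Gli1*, and the estimated prior degrees of freedom were 8.44, against 2.66 over all probe sets. Both also passed once probe sets averaging under 6 were left out (adjusted p = 0.0348 and 0.0355 from limma). *Smo*, but not *Gli1*, passed with equal array medians (0.0386 and 0.0514) and with an intensity trend (0.0396 and 0.0627). When any 1 of the 4 arrays was left out, *Smo* stayed between −0.81 and −0.59 and *Gli1* between −0.57 and −0.47 in log2 fold change. In those fits the lone array of a treatment is assumed to vary like the other treatment. Missing the threshold there therefore says little about these 2 genes. In the reported fit 105 genes had an adjusted p between 0.05 and 0.055, so that these 2 genes are part of a dense margin next to the threshold.

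**Figure D3:**
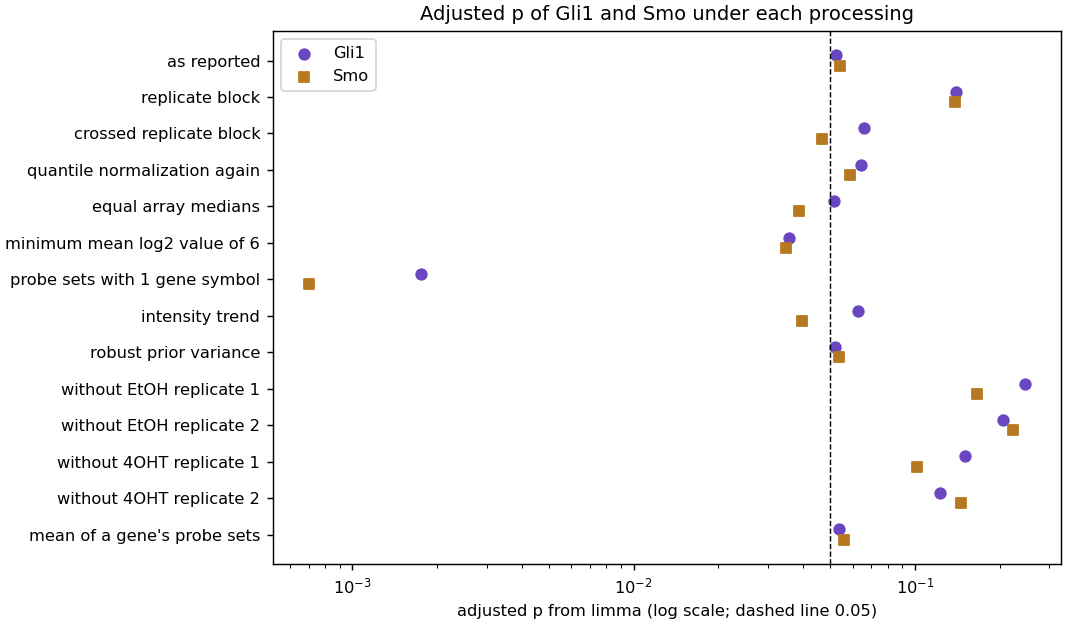
Adjusted p from limma (x axis, log scale) of *Gli1* (circles) and *Smo* (squares) in the reported fit and under each alternative (y axis), with a dashed line at 0.05. Values lie from 0.000700 to 0.245; both genes are left of the line among probe sets with 1 gene symbol and with a minimum mean, and both are right of it without any 1 array.

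Over the 4 arrays, each gene centred on its own mean, the named genes with a pattern closest to that of *Gli1* were *Aldh2* (Euclidean distance 0.021), *Parp12* (0.030), *Xrcc5* (0.030), *Sh3gl3* (0.032) and *Ptgir* (0.033), out of 18344 genes compared. Their log2 fold changes were −0.54 to −0.50, and only *Ptgir*, a prostacyclin receptor gene, passed the test (adjusted p = 0.0461 from limma). The nearest of the other Hedgehog genes was *Smo* (distance 0.33), followed by *Sufu* (0.34), and the farthest was *Gli2* (0.73). With 4 arrays in 2 treatments such distances describe little more than the size of the change and the order within a treatment.

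Other components of the pathway were read from a list of 39 genes, of which 35 were measured. The test called 2 of these lower, none higher, and left 33 without a call, with 11 at an unadjusted p under 0.05 from limma. Over all genes 4.23% were called, 2.99% as lower, and 20.4% had such an unadjusted p. The median log2 fold change was −0.037, and both 4OHT arrays lay below both EtOH arrays for 15 genes and above them for 11, where the shares over all genes were 24.5% and 32.1%.

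Of the genes for making and releasing ligand, *Hhat*, which encodes the acyltransferase that attaches palmitate to Hedgehog proteins, fell. Its log2 values were 7.91 and 7.97 with EtOH and 7.20 and 7.09 with 4OHT (1.73-fold lower, log2 fold change −0.79 with a standard error of 0.081, adjusted p = 0.0223 from limma). With 4OHT *Hhat* was close to the array medians, where background and expression could not be told apart. Its promoter is shown, in the manner of *Smo*, as that of the called gene of ligand processing.
Hhat (chr1:192771220-192771469, minus strand): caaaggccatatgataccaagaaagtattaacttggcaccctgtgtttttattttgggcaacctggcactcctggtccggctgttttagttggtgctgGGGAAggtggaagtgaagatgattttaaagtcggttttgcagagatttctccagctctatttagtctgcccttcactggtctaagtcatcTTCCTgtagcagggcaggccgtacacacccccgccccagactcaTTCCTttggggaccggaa
It holds 3 matches of AGGAA or GGGAA, whose far ends lie 152, 62 and 18 bases before the start. *Dhh*, the third ligand gene, had means of 6.33 and 6.34. Among the co-receptor genes, *Cdon*, whose product binds ligand beside Patched, had the largest difference of the list without passing the test. The EtOH arrays gave 7.62 and 7.61 and the 4OHT arrays gave 6.70 and 6.18, so that the spread lay in the 4OHT arrays (log2 fold change −1.17 with a standard error of 0.18, adjusted p = 0.0537 from limma, but 0.0365 without 4OHT replicate 1, where the log2 fold change was −1.43). *Cdon* passed under 6 of the 13 alternatives, with adjusted p from 0.000221 to 0.250 over all of them in limma. The 4OHT signals of *Cdon* were below the array medians and could likewise not be told from background. *Boc* and *Gas1*, the partner co-receptors, had log2 fold changes of 0.0042 and 0.026.

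Of 10 genes for regulators at the cilium, *Tulp3*, which brings receptors such as Gpr161 into it, fell from log2 values of 9.87 and 10.00 to 9.10 and 9.11 (1.78-fold lower, log2 fold change −0.83 with a standard error of 0.082, adjusted p = 0.0212 from limma). Its promoter window holds none of these matches. It was the only call among them, although both 4OHT arrays were below both EtOH arrays for 6 of the 10, and for 24.5% of all genes. *Kif7*, a kinesin gene of the Gli pathway, and *Gpr161*, a receptor gene that restrains it, had log2 fold changes of −0.17 (adjusted p = 0.328 from limma) and −0.19 (0.345). None of 6 genes for protein kinase A and other kinases of the Gli proteins was called, with log2 fold changes of −0.23 to 0.19. The 6 genes for Gli ubiquitination likewise had no call (−0.43 to 0.11), with *Spop*, an adaptor for the turnover of Gli2 and Gli3, at −0.11. With any 1 array left out, the log2 fold changes of *Hhat* and *Tulp3* were −0.85 to −0.74 and −0.90 to −0.77. With same-numbered arrays treated as pairs neither passed the test (adjusted p = 0.0900 and 0.0814 from limma). Both stayed called in the other fits of all 4 arrays.

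Genes known as Hedgehog targets in other tissues were read from a second list, with 25 of 26 measured. The test called 2 of these lower, none higher, and left 23 without a call, beside 2.99% called lower over all genes. An unadjusted p under 0.05 from limma was found for 4 of the 25, beside 20.4% of all genes. Besides the 2 called genes these were *Bcl2* and *Ccne1*. *Bcl2* was lower (log2 fold change −0.36, adjusted p = 0.127 from limma) and *Ccne1* higher (0.49, adjusted p = 0.0982 from limma). The median log2 fold change was 0.12, beside 0.031 over all genes, and 16 of the 25 probe sets were at or below the median of all values. Both 4OHT arrays lay above both EtOH arrays for 14 of the 25 and below them for 5. Over all genes these shares were 32.1% above and 24.5% below. The 2 called lower were the D-type cyclin genes *Ccnd1* (log2 values 9.62 and 9.66 with EtOH, 9.11 and 9.15 with 4OHT, adjusted p = 0.0421 from limma) and *Ccnd2* (9.37 and 9.30 with EtOH, 8.33 and 8.54 with 4OHT, adjusted p = 0.0266 from limma). Both were already known to be called when the list was drawn up, and both are driven by many other signals in T cells, so that they are not particular to this pathway. With any 1 array left out, the log2 fold changes were −0.53 to −0.49 for *Ccnd1* and −1.0 to −0.80 for *Ccnd2*. With same-numbered arrays treated as pairs neither passed the test (adjusted p = 0.123 and 0.0920 from limma). *Ccnd1* also missed it after quantile normalization again (0.0551) and with the pairing crossed (0.0717). In the other fits of all 4 arrays both cyclin genes stayed called. The 5 forkhead factor genes (−0.033 to 0.17) and the 5 genes of secreted factors (0.10 to 0.23) had no call. Of the 3 targets that feed back on the pathway, *Gli1* was lower without passing the test, while *Ptch1* and *Hhip* overlapped between treatments.

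**Figure D4:**
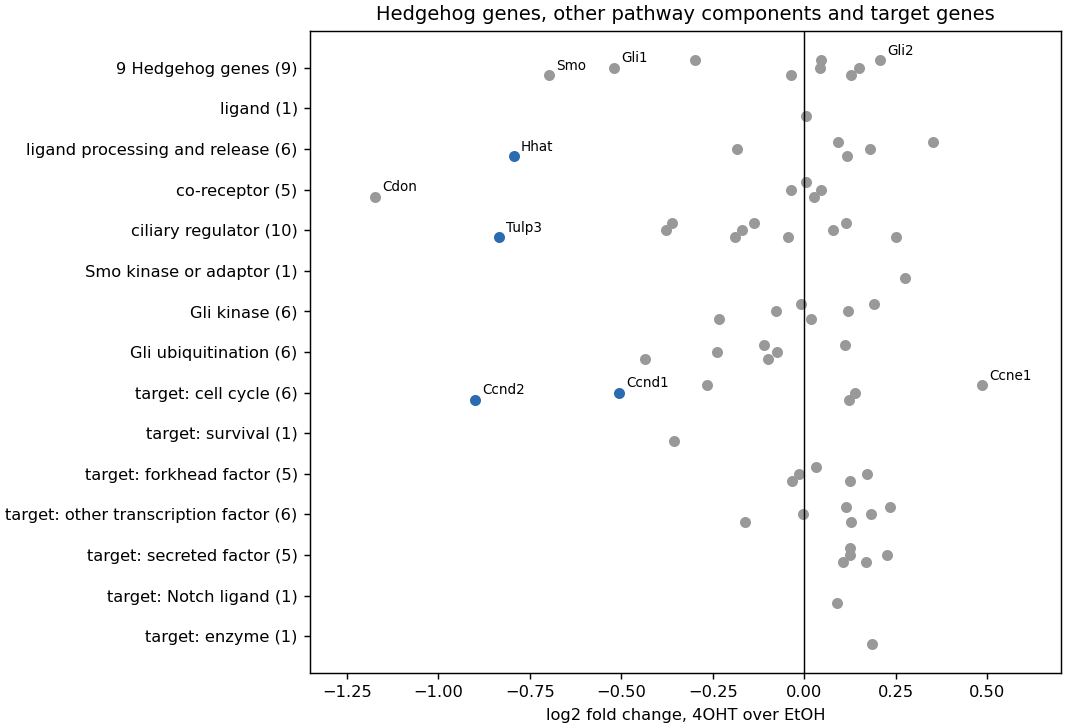
Log2 fold change (x axis, 4OHT over EtOH) of the 9 Hedgehog genes, 35 other pathway components by role and 25 target genes by role (y axis, number of genes in brackets). Each point is a gene, in blue where it was called lower and in grey otherwise; the 4 called genes are *Hhat*, *Tulp3*, *Ccnd1* and *Ccnd2*, and no gene was called higher.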

How the data were processed

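RNA of 4 samples of ILC87-Ik1-ER cells, 2 per treatment, was labelled from 150 ng of total RNA and hybridised to Affymetrix Gene ST 1.0 arrays. The log2 values deposited by the authors were made, per the labels, with RMA in Affymetrix Expression Console 1.1, that is, after background correction, quantile normalization and summary of each probe set. RMA cannot show a shift common to most genes and compresses dim signals. For the probe sets, the sources used here name no genome build. Treatments and sample numbers come from the sample titles.

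The comparison used R 4.3.3 with limma 3.58.1 (lmFit, eBayes, two-sided, no filter, no block), with 2 residual and 2.66 prior degrees of freedom and Benjamini-Hochberg adjustment over 35556 probe sets. Symbols of 21698 of 21789 singly named probe sets were updated by Entrez number through RefSeq (GRCm38.p6). Of several probe sets of a gene the one with the highest mean was used. The 9 genes, the pathway, target and marker lists and the tests were chosen with earlier results of these data known. All 9 genes were named. Of the lists, called genes, targets at an unadjusted p under 0.05, the closest partners and some genes that illustrate a range were named. Listed genes without a singly named probe set were not analysed here. Alternatives covered the replicate block, normalization, filters, the prior variance, left-out arrays and the threshold. The code was tested on simulated data.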

Additional observations from a re-analysis of the deposited data

How the results depend on the processing

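None of the 9 Hedgehog genes was called higher under any alternative. The number called lower, 0 as reported, became 1 (*Smo*) with equal array medians and with an intensity trend and 2 (*Smo* and *Gli1*) with a minimum mean of 6, with probe sets of 1 symbol or at an adjusted p under 0.10. Over all probe sets 772 were lower and 351 higher. These were 1868 and 1070 among probe sets with 1 symbol, where 6 components were lower and 1 higher and 1 target was higher, and 1528 and 788 at an adjusted p under 0.10, with 4 lower components and 1 higher target. Quantile normalization again left 1 target lower and gave 3 lower components, against 2 as reported. Equal array medians, the minimum mean of 6 and the intensity trend also gave 3, and *Cdon* was the component added each time. Leaving out 1 array gave 0 to 360 lower and 0 to 94 higher probe sets, 0 to 1 lower components and 0 lower targets in each fit (0 to 0); without EtOH replicate 1 or 2 no probe set was called. Samples share numbers, but whether these pair EtOH with 4OHT samples is not stated. Deviations of same-numbered arrays correlated at r = −0.13 over probe sets, a value that cannot settle whether they were paired. A replicate block left 32 lower and 10 higher probe sets and 0 components and 0 targets. The crossed pairing, added after seeing the data, gave 552 lower and 226 higher, with 1 Hedgehog gene and 1 target lower.

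The sign of small log2 fold changes turned. Without 1 array they ran from −0.031 to 0.12 for *Ptch1*, −0.10 to 0.031 for *Hhip* (also 0.028), −0.12 to 0.22 for *Gli3*, −0.23 to 0.0071 for *Spop*, −0.0025 to 0.055 for *Gas1*, −0.074 to 0.082 for *Dhh* (also −0.073) and −0.093 to 0.10 for *Boc* (also −0.052). *Dhh* and *Boc* were at −0.053 and −0.041 after quantile normalization again and at −0.018 and −0.018 with equal array medians. *Shh*, *Ihh*, *Smo*, *Sufu*, *Gli1* and *Gli2* kept their direction under all 13 alternatives. The cause of these changes was not tested. With 2 arrays per treatment a dim gene such as *Hhip* or *Gli3* could not be told from background.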
